A study of Mus musculus with 12 samples.

Results

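The genes described here are 10 markers of T cells and natural killer cells, read as RNA in mouse perigonadal white fat. They are Cd3e, Cd3g, Cd4, Cd8a, Trbc2, Foxp3, Il7r, Gata3, Nkg7 and Klrb1c. They were taken by gene symbol from the 53379 gene identifiers in each count file, and all 10 were found. The tissue came from 4 groups of C57BL/6 mice aged 9 weeks, taken at zeitgeber time 9 after 7 days of treatment. They were mice with an adipose tissue specific Cdk7 knockout given CL (ko CL), wild-type mice given CL (wt CL), knockout mice given saline (ko saline) and wild-type mice given saline (wt saline). Each group had 3 libraries, and each library held RNA pooled from 2 mice. The p-values therefore measure the spread between pools. The labels give CL only by that abbreviation, which in this field stands for a beta-3-adrenergic agonist. The Cre line behind the knockout and the sex of the mice were not given in the sources used here, and no label says that immune cells were sorted or removed.

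T cells recognise antigen through a receptor whose variable chains, joined to constant regions such as the one encoded by Trbc2, sit on the membrane with the CD3 signalling chains. Helper T cells carry the co-receptor Cd4 and cytotoxic T cells Cd8a, and regulatory T cells, which hold inflammation in check in visceral fat, depend on the transcription factor Foxp3. Natural killer cells lack that receptor and kill with granules. Il7r, the alpha chain of the interleukin-7 receptor, passes the survival signal on which naive and memory T cells and innate lymphoid cells rely.

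Il7r was the member with the largest difference between groups in these data, and Cd3e, the defining T cell gene, did not pass the test in any comparison. The 250 bases before the RefSeq start of these genes are printed to show them side by side, 5′ to 3′ on the minus strand of RefSeq's GRCm38.p6. Capitals mark ACTTCCT, the reverse complement of AGGAAGT, a core bound by ETS family transcription factors.
Cd3e, chr9:45009612-45009861: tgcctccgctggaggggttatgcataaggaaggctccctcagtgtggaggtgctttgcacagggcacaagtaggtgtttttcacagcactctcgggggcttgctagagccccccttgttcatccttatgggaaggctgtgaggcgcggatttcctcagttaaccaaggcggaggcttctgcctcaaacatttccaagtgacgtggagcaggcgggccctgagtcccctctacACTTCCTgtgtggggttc
Il7r, chr15:9529877-9530126: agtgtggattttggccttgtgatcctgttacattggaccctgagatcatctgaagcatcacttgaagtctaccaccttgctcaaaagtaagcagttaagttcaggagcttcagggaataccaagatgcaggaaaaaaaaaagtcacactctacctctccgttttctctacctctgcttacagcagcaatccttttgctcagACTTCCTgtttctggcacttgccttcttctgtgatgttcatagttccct
Of the 10 members, 8 had such a window in the table (9 windows, because Foxp3 had a pair), and 2 of these windows held the motif on either strand. It was present in 7.69% of the 32851 windows of all genes. A match is only a description of the letters. In GENCODE M21 the Il7r window overlaps the first exon of a non-coding Il7r transcript. The last bases of the Cd3e window, with part of the marked motif, lie within the annotated Cd3e gene, which spans 44998740 to 45009627.

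Libraries held 21892817 to 27985019 gene counts. Cdk7 was at 18.1 to 23.5 CPM (a gene's counts over its library's TMM-scaled depth) in ko CL and 11.02 to 11.7 CPM in ko saline, against 30.4 to 35.4 CPM in wt CL and 29.3 to 30.0 CPM in wt saline. These levels follow the sample titles, from which the groups were taken; the genotype tag goes with the treatment and is at odds with 6 of the 12 titles. The adipocyte marker Adipoq was abundant throughout, at 1073 to 1464 CPM in ko CL and 2612 to 3608 CPM in the other libraries. Summed over 8 adipocyte markers, the level was 7215 to 11048 CPM in ko CL and 26818 to 29149 CPM in wt CL. Under saline that sum was 14857 to 15959 CPM in ko and 22214 to 24380 CPM in wt. CPM values are shares of a library, and the part of this difference in the members' levels was not tested. Library ko CL 2 stood apart in B cell genes, with Ighm, the heavy chain of immunoglobulin M, at 2574 CPM against 407 and 460 CPM in ko CL 1 and ko CL 3. That library also had the highest level in its group of 9 of the 10 members, all but Il7r. Library ko saline 1 was highest in its group for 7 members. Member results that lost their call without ko CL 2 are given with and without it. In the wider T cell and the cytotoxic and natural killer lists this was done for counts of calls. Genes named from the wider lists are not each given without ko CL 2.

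The members were scarce. Over all 12 libraries Il7r had 12562 counts, and the other members had 37 (Foxp3) to 770 (Cd4). Per kilobase of exon, the mean level in wt saline was 2.29 ± 0.61 CPM for Trbc2 and 2.01 ± 0.363 CPM for Nkg7 (SD, n = 3, as for all means here), the granule membrane protein of cytotoxic cells. Il7r followed at 0.709 ± 0.107 CPM per kilobase. Cd3g (0.449 ± 0.143), Klrb1c (0.431 ± 0.107) and Cd4 (0.423 ± 0.124) came next, then Gata3 (0.269 ± 0.0164), Cd3e (0.261 ± 0.0989) and Cd8a (0.125 ± 0.024), in the same unit. Foxp3 was lowest at 0.043 ± 0.0235 CPM per kilobase. Trbc2 and Nkg7 lay within 1 SD of each other, as did Cd3g, Klrb1c and Cd4 among themselves, and Gata3 and Cd3e. In ko CL the order was led by Il7r, at 30.8 ± 8.54 CPM per kilobase, with Nkg7 next at 2.76 ± 0.632.

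**Figure D1:**
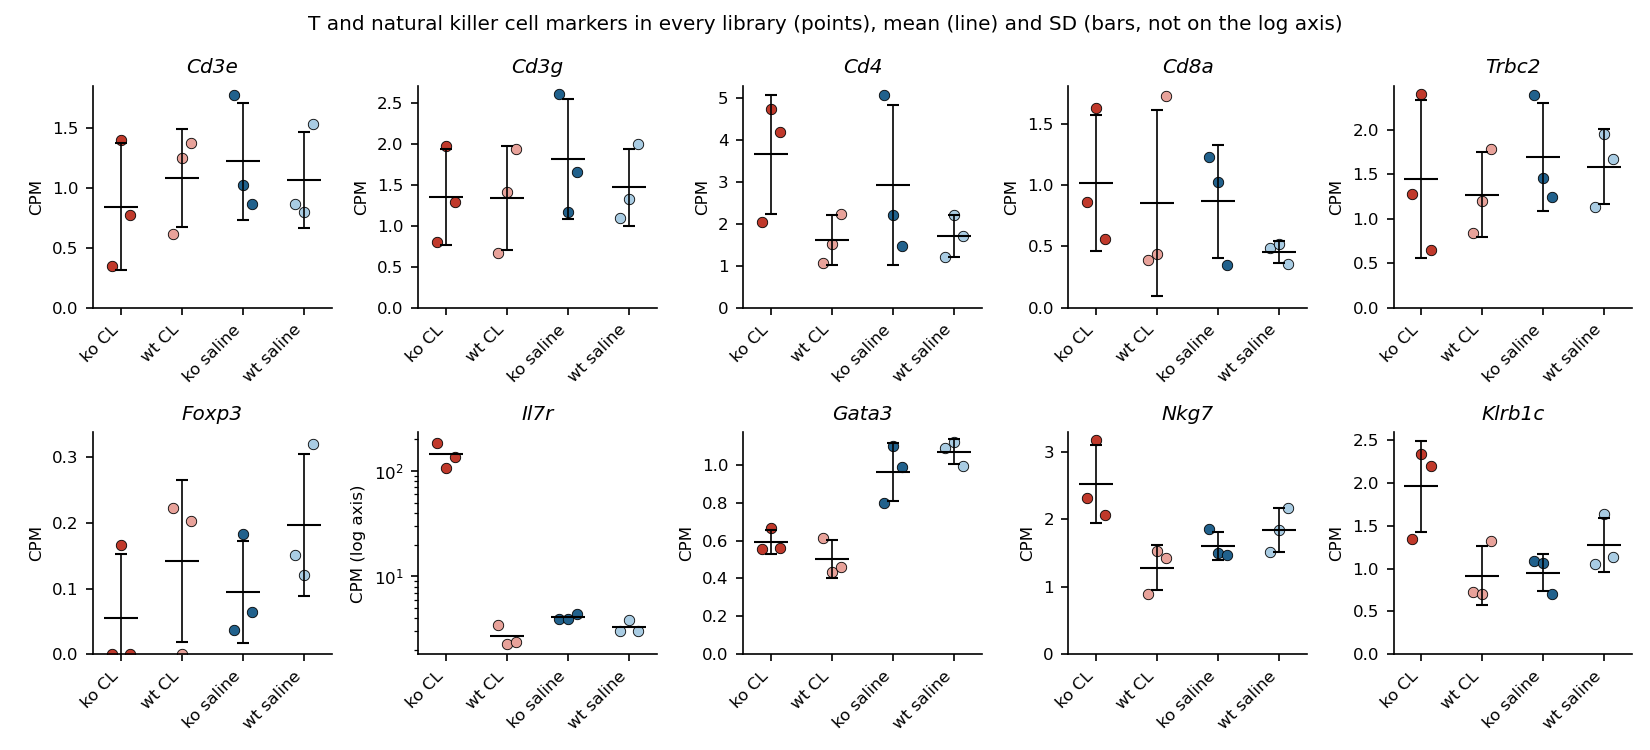
Level of each of the 10 members in CPM, with 1 point per library of 2 pooled mice; the line is the group mean and the bars are the SD over 3 libraries, except for Il7r, which has a log axis and no bars. Il7r in ko CL (108 to 187 CPM) stands above all other libraries (2.28 to 4.43 CPM), while the Cd3e, Cd3g and Trbc2 points of all 4 groups overlap.

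A gene was called where its adjusted p was under 0.05 by the quasi-likelihood test of edgeR, with Benjamini-Hochberg adjustment over 16554 genes, and 9 of the 10 members passed the filter on low counts. In ko against wt under CL, 4 of the 9 were called higher (Il7r, Cd4, Klrb1c and Nkg7) and 0 lower, where 27.6% and 29.3% of all tested genes were called higher and lower. In CL against saline within ko, 3 were called higher and 1 lower, where 27.2% and 27.5% of all tested genes were. Within wt, 0 were called higher and 1 lower, where 19.6% and 17.1% of all were. Under saline 0 members were called in either direction between ko and wt, where 7.99% and 6.45% of all were called higher and lower. For the difference of the CL responses, 3 members were called more positive in ko and 0 more negative, where 21.8% and 23.6% of all tested genes were. The median log2 fold change of the 9 tested members was 0.26 in ko against wt under CL and 0.26 in CL against saline within ko. Each count of 0 above was also 0 at an unadjusted p under 0.05 and by DESeq2. These comparisons share libraries with one another, and the tenth member, Foxp3, did not pass the filter.

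**Figure D2:**
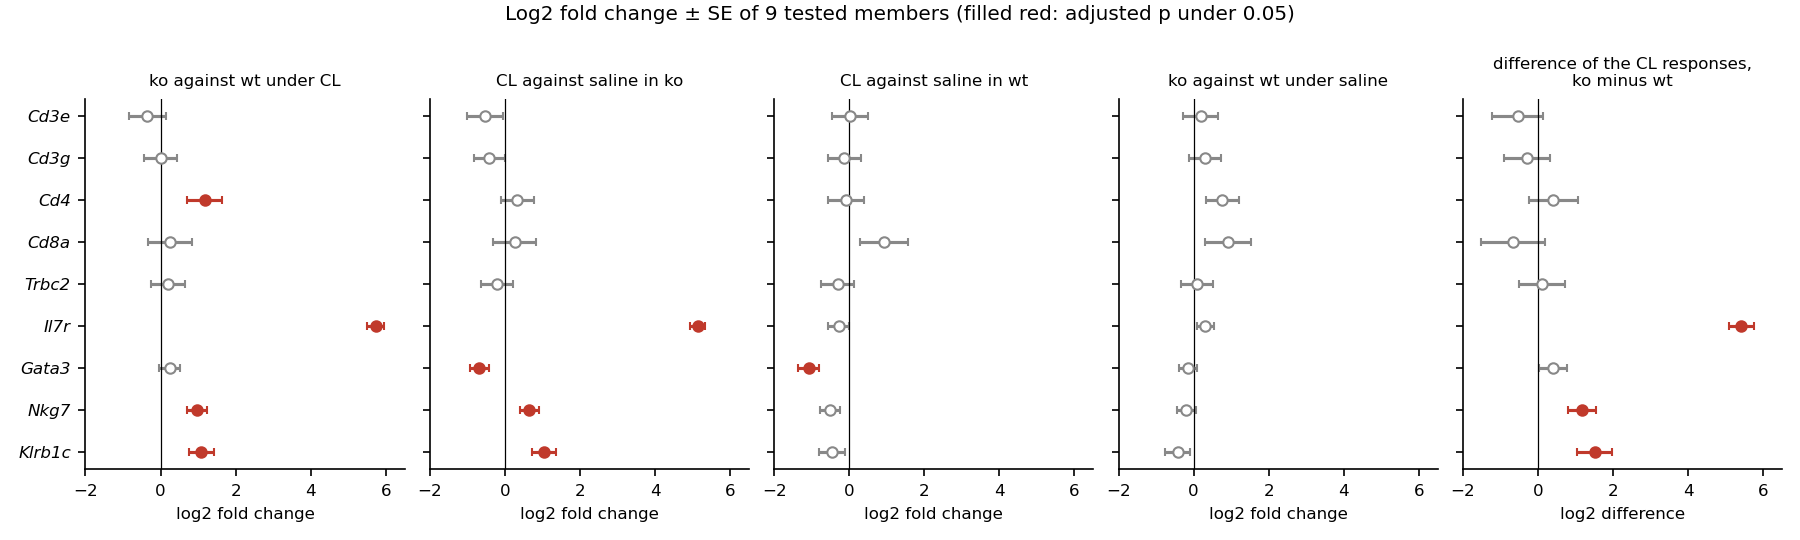
Log2 fold change ± SE of the 9 tested members in 5 comparisons, with filled red points for an adjusted p under 0.05 in edgeR's test. Il7r lies between 5.13 and 5.73 in the 3 comparisons that set ko CL apart, Nkg7 and Klrb1c between 0.65 and 1.51, and Cd3e, Cd3g, Trbc2 and Cd8a have open points in every panel.

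The antigen receptor genes Cd3e, Cd3g and Trbc2 were measured first, since they define T cells. None of the 3 was called in any of the 5 comparisons. Cd3e (chromosome 9, 44998740 to 45009627, minus strand, GRCm38) encodes the epsilon chain of CD3. It was at 0.346, 1.40 and 0.776 CPM in ko CL, 0.615, 1.25 and 1.37 CPM in wt CL, 1.78, 1.02 and 0.861 CPM in ko saline, and 0.866, 0.800 and 1.53 CPM in wt saline. All 4 groups overlapped, and the lowest library was ko CL 1. Its log2 fold change in ko against wt under CL was -0.36 ± 0.49 (SE here and below; adjusted p = 0.557), with a 95% interval of -1.43 to 0.71.

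Cd3g (chromosome 9, 44969572 to 44980431, minus strand), the gamma chain, lies next to Cd3e. It was at 0.797, 1.97 and 1.29 CPM in ko CL, 0.670, 1.41 and 1.93 CPM in wt CL, 2.61, 1.17 and 1.66 CPM in ko saline, and 1.09, 1.32 and 1.99 CPM in wt saline. Again the groups overlapped, and its log2 fold change in ko against wt under CL was 0.01 ± 0.44 (adjusted p = 0.986, 95% interval -0.94 to 0.96). Trbc2 (chromosome 6, 41546730 to 41548352, plus strand), the second constant region of the receptor's beta chain, was at 1.28, 2.40 and 0.646 CPM in ko CL and 0.838, 1.195 and 1.78 CPM in wt CL. Saline libraries held 2.39, 1.46 and 1.24 CPM in ko and 1.13, 1.96 and 1.67 CPM in wt. The same fold change for Trbc2 was 0.19 ± 0.45 (adjusted p = 0.728, 95% interval -0.77 to 1.16). Reads shared with its near-identical copy Trbc1 are left out by the counting, so Trbc2 is undercounted to an unknown degree.

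Under CL against saline in ko, the log2 fold changes of Cd3e, Cd3g and Trbc2 were -0.52 ± 0.47, -0.42 ± 0.42 and -0.21 ± 0.42, and in wt they were 0.02 ± 0.49, -0.13 ± 0.44 and -0.31 ± 0.45. In ko against wt under saline they were 0.19 ± 0.47, 0.30 ± 0.42 and 0.10 ± 0.42. At this depth the intervals span roughly a log2 unit on each side of the estimate. In bulk tissue, fewer cells of a type and less RNA per cell cannot be told apart.

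Wider T cell genes were read in a list of 28 genes outside the members, of which 24 were tested. Under CL, 4 were called higher in ko than in wt and 2 lower, where 27.6% and 29.3% of all tested genes were. The median log2 fold change was 0.44, against 0.00 over all tested genes. Cd28, the co-stimulatory receptor of T cells, rose: it was at 3.88, 5.34 and 3.71 CPM in ko CL and 0.894, 1.52 and 1.73 CPM in wt CL, a log2 fold change of 1.63 ± 0.33 (adjusted p = 0.000882). Every ko CL library exceeded every wt CL library. Cd247, the zeta chain of the receptor complex, was at 3.77, 4.97 and 5.43 CPM in ko CL, against 6.82, 12.1 and 11.4 CPM in wt CL (-1.10 ± 0.22, adjusted p = 0.000802). Under saline Cd247 was at 6.35 to 6.88 CPM in ko and 7.15 to 11.1 CPM in wt. Trac, the alpha chain's constant region, was at 1.32, 1.60 and 1.08 CPM in ko CL, against 2.29, 2.66 and 3.76 CPM in wt CL (-1.12 ± 0.28, adjusted p = 0.00409). In wt saline Trac was at 1.58, 2.08 and 1.96 CPM. Neither Cd247 nor Trac was called in CL against saline within ko or within wt. For both genes every ko CL library was below every wt CL library. Cd28, Cd247 and Trac were named for their small adjusted p, so this separation adds no support. Thy1, a surface glycoprotein of T cells that fibroblasts also carry, was at 17.5 to 22.4 CPM in ko CL and 14.4 to 16.3 CPM in wt CL (0.36 ± 0.11, adjusted p = 0.0122); without wt CL 2 it was 0.30 (adjusted p = 0.0578) and without ko CL 1 0.27 (0.0654). All 8 progenitor and fibroblast markers were called higher in the same comparison, with a summed level of 5750 to 7118 CPM in ko CL and 2380 to 2871 CPM in wt CL and none at 0, and their part in the Thy1 result was not tested.

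Within ko, 3 of these 24 genes were called higher under CL than under saline and 0 lower (median 0.10), among them Cd28 (1.72 ± 0.32, adjusted p = 0.000595). Within wt the counts were 0 higher and 2 lower, the adhesion receptor Cd2 (-0.85 ± 0.27, adjusted p = 0.0273) and Thy1 (-0.33 ± 0.11, adjusted p = 0.0300). Of all tested genes, 27.2% and 27.5% were called higher and lower within ko, and 19.6% and 17.1% within wt. Under saline 0 of 24 were called between ko and wt by edgeR or DESeq2, and 0 had an unadjusted p under 0.05. At that unadjusted p, 1 was lower within ko and 1 higher within wt, and DESeq2 called 0 of either. The difference of the CL responses, ko minus wt, was called for Cd28 (1.83 ± 0.47, adjusted p = 0.00649) and Trac (-1.21 ± 0.39, adjusted p = 0.0226), and the Trac call was lost without wt CL 3 (-0.98, adjusted p = 0.0674) or ko saline 1 (-0.93, 0.0597). Those single calls, 1 more positive and 1 more negative in ko, became 2 more positive without wt CL 3, ko saline 1, ko saline 2, ko CL 1 or ko CL 2, and 2 more negative without wt saline 3, wt CL 1 or ko CL 2. Under CL the count of 4 higher in ko became 2 without ko CL 2, without wt CL 1 or without wt CL 2. The 0 genes lower within ko became 3 without ko CL 2 and 1 without wt CL 1, wt CL 3 or ko saline 3, and the 2 lower within wt became 0 without wt saline 2, wt saline 3, wt CL 1 or wt CL 2 and 1 without wt CL 3.

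Cd4 rose in ko against wt under CL, by a margin that depended on single libraries. Cd4 (chromosome 6, 124864692 to 124888221, minus strand) is the co-receptor for class II MHC and in mice is also carried by some dendritic cells. It was at 2.04, 4.74 and 4.18 CPM in ko CL, 1.06, 1.52 and 2.24 CPM in wt CL, 5.07, 2.20 and 1.47 CPM in ko saline, and 1.204, 2.20 and 1.71 CPM in wt saline. The lowest ko CL library lay below the highest wt CL library, and the highest value of all was ko saline 1. The log2 fold change in ko against wt under CL was 1.18 ± 0.46 (adjusted p = 0.0453), and no other comparison called Cd4. Without ko CL 2 it was 0.93 (adjusted p = 0.144), without ko CL 3 1.06 (0.107), without wt CL 1 0.95 (0.147), without wt CL 2 1.13 (0.110), without wt saline 3 1.17 (0.0572) and without ko saline 2 1.17 (0.0526). The dendritic cell genes Flt3, at 5.68 to 8.32 CPM in ko CL and 2.09 to 2.46 CPM in wt CL, and Clec9a, at 8.42 to 10.7 CPM in ko CL and 3.63 to 4.83 CPM in wt CL, rose in the same comparison (1.63 ± 0.19, adjusted p = 8.15e-06, and 1.23 ± 0.15, adjusted p = 1.18e-05). Of 8 dendritic cell markers, 5 were called higher and 2, Itgae and Zbtb46, lower in that comparison, where 27.6% and 29.3% of all tested genes were. The summed level of the 8 markers was 126 to 133 CPM in ko CL and 119 to 127 CPM in wt CL, and none was at 0 in all libraries of a group. Their part in the Cd4 result was not tested.

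Cd8a (chromosome 6, 71373427 to 71379173, plus strand), the co-receptor for class I MHC, gave no call in any comparison. It was at 0.866, 1.64 and 0.560 CPM in ko CL, 0.391, 0.434 and 1.73 CPM in wt CL, 1.23, 1.02 and 0.351 CPM in ko saline, and 0.489, 0.520 and 0.356 CPM in wt saline. Library wt CL 3 was the highest of all 12, and the groups overlapped in each comparison made. In ko against wt under CL the log2 fold change was 0.26 ± 0.59 (adjusted p = 0.725, 95% interval -1.02 to 1.54), and under saline it was 0.92 ± 0.62 (adjusted p = 0.355). A predicted gene, Gm44174, overlaps Cd8a at its edge on the same strand, and reads matching both are not counted.

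Foxp3 (chromosome X, 7573644 to 7595245, plus strand) was too low to test. It had 0, 5 and 0 counts in ko CL, 4, 0 and 4 in wt CL, 1, 5 and 2 in ko saline, and 4, 3 and 9 in wt saline. The libraries at 0 allow a level of up to 0.104 CPM in ko CL 1, 0.129 CPM in ko CL 3 and 0.163 CPM in wt CL 2, taking 3 counts as the floor (counting error only). No difference between groups could be shown at this depth, and part of the gene is shared on the same strand with the RNA gene Flicr.

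Genes that regulatory T cells share with other cells were read in a list of 16, of which 13 were tested. Under CL, 4 were called higher in ko than in wt and 2 lower (median 0.23), where 27.6% and 29.3% of all tested genes were. Itgae, the integrin chain CD103 of tissue T cells and some dendritic cells, fell to 3.77, 5.24 and 4.74 CPM in ko CL, against 15.03, 13.0 and 15.1 CPM in wt CL (-1.65 ± 0.15, adjusted p = 1.17e-06). Ikzf2, the factor Helios, fell to 3.91, 5.67 and 4.31 CPM in ko CL, against 10.3, 10.4 and 10.9 CPM in wt CL (-1.18 ± 0.16, adjusted p = 2.76e-05). Il1rl1, the interleukin-33 receptor, was at 10.3 to 13.5 CPM in ko CL, against 7.93 to 8.77 CPM in wt CL (0.50 ± 0.11, adjusted p = 0.00128). CL against saline called Il1rl1 lower within wt and did not call it within ko. Batf, a factor of activated lymphocytes, was higher in ko CL than in wt CL by 1.54 ± 0.34 (adjusted p = 0.00154). The list thus held genes that moved both ways. Within ko, CL against saline gave 2 higher and 3 lower, among them Il10, an anti-inflammatory cytokine that macrophages also make (1.93 ± 0.50, adjusted p = 0.00549), and Il2ra, the interleukin-2 receptor alpha chain (-0.62 ± 0.18, adjusted p = 0.00956). Within wt it gave 1 higher and 4 lower, Il2ra again lower (-0.76 ± 0.18, adjusted p = 0.00459). The shares of all tested genes called higher and lower were 27.2% and 27.5% within ko, and 19.6% and 17.1% within wt. Under saline 0 of 13 were called between the genotypes by edgeR or DESeq2, though 2 were lower at an unadjusted p under 0.05, and 1 was called lower without wt saline 3, wt CL 3 or ko CL 1. Of the 2 called higher within ko, 1 was lost without ko saline 3, and the gene called higher within wt was lost without wt saline 2.

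Il7r carried the largest change of all members. Il7r (chromosome 15, 9505788 to 9530176, minus strand) is shown with its upstream bases above. It was at 187, 108 and 137 CPM in ko CL, 3.46, 2.28 and 2.39 CPM in wt CL, 3.91, 3.91 and 4.43 CPM in ko saline, and 3.01, 3.88 and 3.02 CPM in wt saline, with 3179 to 5386 counts in ko CL and 42 to 139 elsewhere. No library outside ko CL came within an order of magnitude of those in it. The log2 fold change was 5.73 ± 0.22 in ko against wt under CL (53.1-fold, adjusted p = 9.86e-10) and 5.13 ± 0.20 in CL against saline within ko (35.1-fold, adjusted p = 3.16e-09). Within wt, CL against saline gave -0.29 ± 0.27 (adjusted p = 0.441), and the difference of the CL responses was 5.42 ± 0.33 (adjusted p = 1.27e-07). Under saline the ko libraries all lay just above the wt libraries, but the fold change of 0.31 ± 0.24 was not called (adjusted p = 0.418).

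Correlations with Il7r were taken over the 12 libraries, which share groups and depth, and are descriptions only. The 3 protein-coding genes outside the members whose log2 CPM was most like that of Il7r, by Pearson correlation, were Cd300c2 (r = 0.999), Itgax (0.999) and Nceh1 (0.998). Among the members its r was 0.691 with Klrb1c, 0.671 with Nkg7, 0.524 with Cd4, 0.284 with Cd8a, -0.165 with Trbc2, -0.184 with Cd3g, -0.315 with Gata3 and -0.442 with Cd3e. Itgax, the integrin chain CD11c of macrophages and dendritic cells, was at 507, 329 and 334 CPM in ko CL and 11.7 to 19.3 CPM in the other libraries. Adgre1, the macrophage marker F4/80, was at 620 to 1007 CPM in ko CL and 37.7 to 73.2 CPM elsewhere. Of 14 macrophage markers, 13 were called higher and 1, the scavenger receptor Cd163, lower in ko against wt under CL (median 3.08), where 27.6% and 29.3% of all tested genes were. Their summed level was 10536 to 15280 CPM in ko CL, 933 to 1134 CPM in wt CL, 1642 to 1731 CPM in ko saline and 1699 to 1782 CPM in wt saline, and none was at 0. Their part in the Il7r result was not tested, and bulk libraries do not say which cells held the Il7r RNA.

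**Figure D3:**
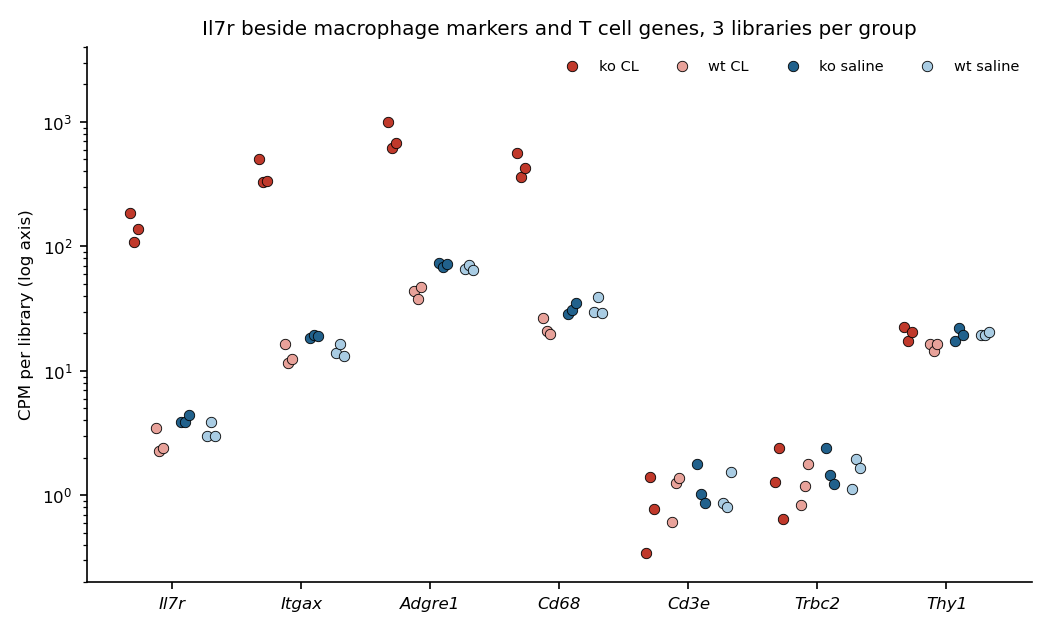
CPM per library on a log axis for Il7r, the macrophage markers Itgax, Adgre1 and Cd68, and the T cell genes Cd3e, Trbc2 and Thy1, with 3 libraries per group. Il7r and the 3 macrophage markers separate ko CL from all other libraries, Cd3e and Trbc2 do not, and Thy1 differs by a log2 fold change of 0.36 in ko against wt under CL.

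The ligands and partners of the receptor were read in a list of 12 genes, of which 11 were tested. Crlf2, which pairs with Il7r in the receptor for Tslp, rose: it was at 4.09, 3.47 and 3.36 CPM in ko CL, against 0.833, 1.06 and 1.37 CPM in ko saline (1.73 ± 0.27, adjusted p = 0.000129). It was at 2.07, 1.36 and 0.967 CPM in wt CL, all below ko CL, and its difference of CL responses was 1.83 ± 0.38 (adjusted p = 0.00183). Il7, the ligand, fell to 2.01, 2.84 and 1.77 CPM in ko CL, against 4.38, 5.34 and 5.33 CPM in ko saline (-1.18 ± 0.19, adjusted p = 0.000165). Il7 was also called lower under CL within wt. It was not called in ko against wt under CL or for the difference of CL responses. Il15, a cytokine that sustains natural killer cells, rose to 24.2, 19.4 and 19.9 CPM in ko CL, against 9.89, 11.6 and 13.1 CPM in wt CL (0.88 ± 0.12, adjusted p = 5.02e-05). Its high-affinity receptor chain Il15ra was at 35.05, 47.3 and 51.8 CPM in ko CL, against 122, 102 and 106 CPM in wt CL (-1.31 ± 0.12, adjusted p = 9.27e-07). Stat5a, a transducer of these cytokines, was at 42.2 to 52.4 CPM in ko CL, against 79.3 to 94.5 CPM in wt CL (-0.89 ± 0.09, adjusted p = 1.81e-06). In CL against saline, Il15ra and Stat5a were both called higher within wt and neither was called within ko. Both were also called lower in ko than in wt under saline. In all, 4 genes of the list were called higher and 3 lower in ko against wt under CL, where 27.6% and 29.3% of all tested genes were. The counts were 2 and 2 in CL against saline within ko (27.2% and 27.5% of all) and 2 and 5 within wt (19.6% and 17.1%). They were 0 and 2 in ko against wt under saline (7.99% and 6.45% of all). The 5 lower within wt became 3 without wt saline 1, wt saline 3 or wt CL 3, and the 2 under saline became 1 without ko saline 2. The 0 under saline was 1 at an unadjusted p under 0.05 and 0 by DESeq2. Il2rg, the shared gamma chain, had 0 counts in every library; another annotated gene, Gm20489, covers it on the same strand, and the cause of the zeros was not tested.

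Gata3 fell under CL in both genotypes. Gata3 (chromosome 2, 9857078 to 9890034, minus strand) is the master factor of type 2 helper T cells and type 2 innate lymphoid cells and is also known in adipocyte precursors. It was at 0.554, 0.667 and 0.560 CPM in ko CL, 0.615, 0.434 and 0.458 CPM in wt CL, 0.797, 1.10 and 0.989 CPM in ko saline, and 1.09, 1.12 and 0.996 CPM in wt saline. Every CL library was below every saline library. In CL against saline the log2 fold change was -0.69 ± 0.25 in ko (adjusted p = 0.0339) and -1.08 ± 0.27 in wt (adjusted p = 0.00700). Between the genotypes these responses differed by 0.40 ± 0.37, which was not called (adjusted p = 0.428, 95% interval -0.40 to 1.198), and neither were ko against wt under CL (0.25 ± 0.28) or saline (-0.15 ± 0.24). The counts were 8 to 31 per library. The call within ko was lost without ko saline 2 (-0.61, adjusted p = 0.105), ko saline 3 (-0.70, 0.0718), ko CL 1 (-0.66, 0.0814) or ko CL 3 (-0.68, 0.0729).

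Markers of 2 other tissues were read beside Gata3. Of 10 mesothelial markers, CL against saline called 6 lower and 1, Wt1, higher in ko, and 10 lower and 0 higher in wt. Their summed level was 183 to 245 CPM in ko CL and 149 to 174 CPM in wt CL, against 282 to 402 CPM in ko saline and 328 to 404 CPM in wt saline, with no marker at 0. Of 12 ciliated duct epithelium markers, it called 12 lower and 0 higher in ko, and 8 lower and 1, Tekt1, higher in wt. Their sum was 16.4 to 22.8 CPM in ko CL and 13.8 to 16.0 CPM in wt CL, against 94.3 to 116 CPM in ko saline and 19.1 to 48.9 CPM in wt saline, with Dnah5 and Ccdc153 at 0 in wt CL. Of all tested genes, CL against saline called 27.5% lower and 27.2% higher in ko, and 17.1% lower and 19.6% higher in wt. A score made from all 12 ciliated duct epithelium markers, called a motile cilia score here, was also used as a covariate. With this covariate the Gata3 fold change was -0.48 in ko (adjusted p = 0.551) and -0.99 in wt (adjusted p = 0.0505). Over all tested genes this covariate cut the calls within ko from 4497 higher and 4546 lower to 1926 and 1350. The duct marker sums differed between CL and saline libraries, so the score and the treatment cannot be fully told apart in this fit. The part of mesothelium in the Gata3 result was not tested. The genes most like Gata3 over the 12 libraries were Mst1r (r = 0.978), Gamt (0.976) and Ndn (0.964).

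Among 15 genes of type 2 innate lymphoid and gamma-delta T cells, 10 were tested, and 5 of the 10 were called in ko against wt under CL, 1 higher and 4 lower, where 27.6% and 29.3% of all tested genes were. Il17rb, the interleukin-25 receptor chain, was at 1.45, 1.57 and 0.991 CPM in ko CL, against 4.49, 4.21 and 3.99 CPM in ko saline (-1.65 ± 0.22, adjusted p = 3.24e-05). In wt it was at 2.57, 2.39 and 2.03 CPM under CL and 2.56, 1.68 and 2.24 CPM under saline, and the difference of the CL responses was -1.75 ± 0.31 (adjusted p = 0.000484). The gene called higher was Trdc, the delta chain's constant region (0.94 ± 0.34, adjusted p = 0.0309), and that count became 0 without wt CL 1, wt CL 2, wt CL 3, ko CL 2 or ko CL 3.

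The natural killer cell markers Nkg7 and Klrb1c were called higher in ko fat under CL, and the calls against ko saline were lost under several alternatives. Nkg7 (chromosome 7, 43437073 to 43438249, plus strand) was at 2.32, 3.17 and 2.07 CPM in ko CL, 0.894, 1.52 and 1.42 CPM in wt CL, 1.85, 1.5002 and 1.47 CPM in ko saline, and 1.51, 1.84 and 2.17 CPM in wt saline. The ko CL libraries were above all wt CL and all ko saline libraries, but 1 of them lay below the highest wt saline library. Its log2 fold change was 0.98 ± 0.26 in ko against wt under CL (1.97-fold, adjusted p = 0.00610) and 0.65 ± 0.25 in CL against saline within ko (adjusted p = 0.0392). Within wt, CL against saline gave -0.52 ± 0.26 (adjusted p = 0.143), and the difference of the responses was 1.17 ± 0.36 (adjusted p = 0.0181). The ko against wt call under CL was kept in all 20 alternatives run. The call within ko was lost without ko CL 2 (0.43, adjusted p = 0.198), ko CL 1 (0.69, 0.0577), ko saline 1 (0.73, 0.0517), ko saline 2 (0.58, 0.124) or ko saline 3 (0.56, 0.131), and the difference without wt saline 3 (1.04, 0.0515). Within ko the call was also lost without the low-count filter (0.63, adjusted p = 0.0770), with library size alone (0.57, 0.0688) and with a motile cilia score as covariate (0.43, 0.603). In all, 10 of 20 alternatives ended the call within ko.

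Klrb1c (chromosome 6, 128778485 to 128789215, minus strand) encodes the receptor NK1.1 that marks natural killer cells in C57BL/6 mice. It was at 1.35, 2.34 and 2.20 CPM in ko CL, 0.726, 0.706 and 1.32 CPM in wt CL, 1.09, 1.06 and 0.702 CPM in ko saline, and 1.05, 1.64 and 1.14 CPM in wt saline. The ko CL libraries were above all wt CL and all ko saline libraries, narrowly so for ko CL 1 and wt CL 3. The log2 fold change was 1.08 ± 0.33 in ko against wt under CL (2.12-fold, adjusted p = 0.0134), 1.05 ± 0.32 in CL against saline within ko (adjusted p = 0.0134) and 1.51 ± 0.46 for the difference of responses (adjusted p = 0.0177). Within wt, CL gave -0.46 ± 0.34 (adjusted p = 0.307). Under CL the call between genotypes was lost without ko CL 2 (0.93, adjusted p = 0.0515), wt CL 1 (0.94, 0.0550) or wt CL 2 (0.92, 0.0592), and the call within ko without ko CL 2 (0.87, 0.0590) or ko saline 3 (0.83, 0.0699). With a motile cilia score as covariate the Klrb1c fold change within ko was 0.54 (adjusted p = 0.601), also not called. Summed over Nkg7 and Klrb1c, the level was 3.67, 5.51 and 4.27 CPM in ko CL, 1.62, 2.23 and 2.75 CPM in wt CL, 2.94, 2.56 and 2.17 CPM in ko saline, and 2.56, 3.48 and 3.31 CPM in wt saline. The predicted gene Gm44511 overlaps Klrb1c on the same strand, and reads matching both are not counted.

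In the wider list of cytotoxic and natural killer genes, the calls in the 5 comparisons were all increases, although a fit of only the groups compared called 1 lower in wt under CL, and scaling by library size alone called 4 lower there and moved the median of all tested genes to -0.33. Of 28 such genes outside the members, 25 were tested, and 11 were called higher and 0 lower in ko against wt under CL (median 0.76, against 0.00 over all tested genes), where 27.6% and 29.3% of all tested genes were called. The 11 became 18 with library size alone and 7 with a motile cilia score as covariate. Il12rb2, the signalling chain of the interleukin-12 receptor, was at 3.32, 3.07 and 3.23 CPM in ko CL, against 0.391, 0.271 and 0.661 CPM in wt CL and 0.435, 0.402 and 0.478 CPM in ko saline. Its log2 fold change was 2.84 ± 0.29 in ko against wt under CL (adjusted p = 3.13e-06), and the difference of CL responses was 3.35 ± 0.43 (adjusted p = 4.37e-05). Klrd1, the CD94 chain of inhibitory receptors on natural killer cells, was at 3.64, 4.91 and 4.65 CPM in ko CL, against 2.07, 2.77 and 2.59 CPM in wt CL (0.83 ± 0.23, adjusted p = 0.00764). Its partner Klrc1 was at 1.28, 2.70 and 2.11 CPM in ko CL, against 0.559, 0.977 and 0.560 CPM in wt CL (1.54 ± 0.40, adjusted p = 0.00496). Klra7, a Ly49 receptor, was at 1.39, 2.50 and 1.68 CPM in ko CL, against 0.335, 0.380 and 0.814 CPM in wt CL (1.84 ± 0.44, adjusted p = 0.00296). All 4 of these genes had every ko CL library above every wt CL library. They were named for their small adjusted p, so this separation adds no support. Klrd1, Klrc1 and Klra7 were highest in ko CL 2, and their fold changes without that library are not given here. The Klra genes are near-identical copies of each other, and reads shared between them are not counted.

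Within ko, 7 of the 25 were called higher under CL than under saline and 0 lower (median 0.56), where 27.2% and 27.5% of all tested genes were. The 7 became 1 with the motile cilia covariate, which also cut the calls higher over all tested genes from 4497 to 1926. Of the 25, 4 had a called difference of responses, all more positive in ko, where 21.8% of all tested genes were. In wt 0 were called in either direction under CL, and under saline 0 were called between ko and wt, by edgeR or DESeq2. At an unadjusted p under 0.05, 1 was higher within wt, and 1 was higher and 1 lower in ko under saline. The summed level of the list was 43.0, 71.4 and 55.8 CPM in ko CL, 28.7, 33.2 and 40.3 CPM in wt CL, 46.2, 32.6 and 29.8 CPM in ko saline, and 34.1, 39.8 and 40.8 CPM in wt saline. Library ko CL 1 thus lay below ko saline 1, and ko CL 2 was highest. Without ko CL 2 the count in ko against wt under CL was 5, without wt CL 1 5, without wt CL 2 7 and without ko CL 3 7, and the count within ko was 3 without ko CL 2, 4 without ko saline 2, 3 without ko saline 3 and 11 without ko CL 1. The 4 differences of responses became 2 without wt saline 2, wt CL 1, ko saline 2, ko saline 3, ko CL 2 or ko CL 3, and 8 without ko saline 1 or ko CL 1. Without wt saline 1, 1 gene was called higher in ko under saline. B cell markers, summed at 541, 2704 and 558 CPM in ko CL and 183 to 227 CPM in wt CL, moved with these genes in ko CL 2, with none at 0, and their part in the result was not tested.

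**Figure D4:**
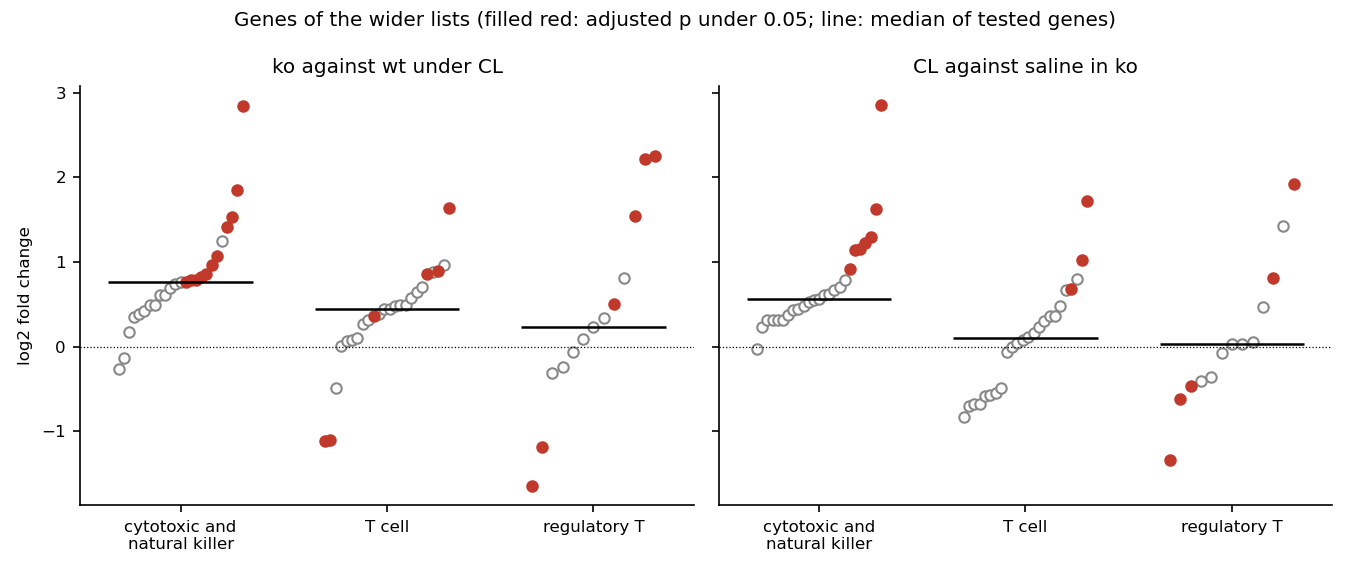
Log2 fold change of each tested gene in the cytotoxic and natural killer, T cell and regulatory T lists, members left out, in ko against wt under CL (left) and CL against saline in ko (right); filled points have an adjusted p under 0.05 and lines are list medians. In the left panel 11 genes of the cytotoxic and natural killer list are called higher and 0 lower, while the other lists hold calls on both sides of 0.

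Over the 12 libraries, Cd3e and Cd3g were the most alike (Pearson r = 0.874 of log2 CPM), and Nkg7 and Klrb1c followed (0.750), then Cd4 and Klrb1c (0.728). Gata3 had its highest r with Trbc2, at 0.244. The genes most like Klrb1c were Klra7 (r = 0.903), Armcx2 (0.880) and Ly6c2 (0.879), those most like Nkg7 were Traf3ip3 (0.920), Spn (0.910) and Ifi209 (0.908), and Ccl5, a chemokine of cytotoxic lymphocytes, was most like Cd4 (0.916). Among genes outside the members, the most like Cd3g was Cd6, a T cell surface receptor (0.849), for Trbc2 Rbm12b1 (0.899) and then Gimap3 (0.890), for Cd3e Fra10ac1 (0.864) and for Cd8a Smu1 (0.830). These values come from 4 groups of shared libraries and are descriptions only.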

How the data were processed

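RNA from perigonadal white fat was sequenced in 12 libraries, 3 per group, each a pool of 250 ng from each of 2 mice. The authors deposited raw counts per gene, made with STAR and HTSeq on GRCm38 per the submitters' processing notes. Versions and the annotation release were not given in the sources used here. HTSeq leaves out reads that match several places or genes. Its 5 summary lines, 12.5% to 17.2% of reads, were left out, which left 21892817 to 27985019 gene counts per library. The deposited file names state reverse-strand counting. Symbols, positions and exon lengths came from GENCODE M21, which held 53274 of the 53379 identifiers. Replicates differed beyond sampling noise in every group (chi-square per degree of freedom 6.96 to 55.5).

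Counts were tested in R 4.3.3 with edgeR 4.0.16, using filterByExpr with a minimum count of 10, TMM scaling, 1 mean per group over 12 libraries, 8 residual degrees of freedom and the quasi-likelihood test, with Benjamini-Hochberg adjustment at 0.05. Each SE was taken from the fold change and its F statistic, as |log2 change| divided by the root of F. Intervals are 95%. Alternatives were no filter, DESeq2 size factors, library size alone, the DESeq2 1.42.0 test, a replicate block and only the groups compared. Others were a motile cilia score as covariate, each library left out, and wt saline 1 with ko CL 2 left out. The score was the mean of the scaled levels of the ciliated duct epithelium markers, which include the general epithelial genes Epcam, Krt7 and Prom2. The model was tested on simulated data. Correlations used log2 CPM with a prior count of 2.

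The members and gene lists were chosen with earlier results of these data known. All members are named; of other lists, up to 4 genes with the smallest adjusted p in a comparison, plus defining markers, are named. Trdc and the overlapping genes were chosen after their values were seen.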

Additional observations from a re-analysis of the deposited data

Results flagged for a closer look

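Of the members, 3 had CL responses that differed between the genotypes by the test of the difference itself, in edgeR's quasi-likelihood test. For Il7r the response in ko exceeded that in wt by 5.42 on the log2 scale, for Klrb1c by 1.51 and for Nkg7 by 1.17.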

How the results depend on the processing

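Il7r and Nkg7 stayed called in ko against wt under CL in all 20 alternatives. Of the alternative values of the members' fold changes, 795 kept direction and side of the threshold, 38 lost the call, 1 gained it (Nkg7 in wt, -0.83 with library size alone) and 57, all uncalled, changed sign. Of counts of members, 179 stayed within 1.5 times and 19 did not, and the causes were not tested. In CL against saline within ko, the 3 higher were 1 without wt saline 1 and ko CL 2 together and 1 with a motile cilia score as covariate, and the 1 lower was 0 without the filter, by DESeq2, with the block, with only the groups compared and with the covariate. Within wt, the 1 lower was 2 with library size alone and 0 with the covariate. The 3 higher differences of responses were 1 with the covariate, which ended Nkg7 (1.05, adjusted p = 0.0779) and Klrb1c (1.21, 0.104). Leaving out 1 library gave 1 to 3 higher and 0 to 1 lower within ko, and 2 to 4 higher in ko against wt under CL. Of the counts of the other gene lists, 857 stayed within 1.5 times and 133 did not. The T cell list's 3 higher within ko were 0 with the covariate and its 4 higher in ko against wt under CL were 9 with library size alone and 2 without wt saline 1 and ko CL 2. Its 2 lower within wt were 4 with library size alone and 1 with the covariate, and its 0 lower within ko were 1 without the filter, with library size alone or with the replicate block, 2 with only the groups compared and 3 without both libraries. The regulatory list's 2 higher within ko were 1 without the filter, with library size alone, by DESeq2, with the block and with the covariate, its 3 lower within ko were 1 with the covariate, and its 4 higher in ko against wt under CL were 7 with library size alone. The cytotoxic and natural killer list's 4 differences of responses were 9 with library size alone and 2 with the block, without both libraries or with the covariate. Over all tested genes the covariate cut the calls within ko from 4497 higher and 4546 lower to 1926 and 1350. In ko against wt under saline it cut them from 1323 higher and 1068 lower to 26 and 70.

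Numbers shared by libraries gave no clear sign of pairing: of 18 same-number pairs, with correlations of -0.355 to 0.176, 2 were over 0.1, and 4 of 12 libraries correlated best with their own number. These correlations of deviations within groups of 3 libraries cannot show that the libraries were unpaired. With the replicate block Cd4 in ko against wt under CL was 1.16 (adjusted p = 0.0710), and within ko Gata3 was -0.69 (0.0562) and Nkg7 0.63 (0.0581).

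All sign changes were of uncalled log2 fold changes. Cd3e within wt was -0.0216 without the filter, -0.000631 with DESeq2 size factors, -0.29 with library size alone, -0.000375 by DESeq2, -0.00431 with the block, -0.13 without both libraries, -0.00445 with only the groups compared and -0.0547 with the covariate. With the covariate, Cd4 was -0.59 within ko and -0.13 for the difference, Nkg7 0.0146 and Klrb1c 0.04999 under saline, Cd8a -0.0407 in ko against wt under CL and Trbc2 -0.0115 for the difference. Without both libraries, Cd8a was -0.28 within ko, Trbc2 -0.0947 under saline, and in ko against wt under CL Cd3g was -0.39, Cd8a -0.26 and Trbc2 -0.39, with Trbc2 -0.29 for the difference. With library size alone Gata3 was 0.00428 under saline and Cd3e 0.0288 in ko against wt under CL, and with the block the Trbc2 difference was -0.00491.

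Leaving out 1 library gave, within ko, -0.0222 to 0.96 for Cd4, -0.29 to 0.56 for Cd8a and -0.82 to 0.0875 for Trbc2. Within wt it gave -0.19 to 0.38 for Cd3e, -0.49 to 0.19 for Cd3g, -0.39 to 0.15 for Cd4 and -0.13 to 1.26 for Cd8a. In ko against wt under saline it gave -0.18 to 0.54 for Cd3e, -0.0451 to 0.59 for Cd3g and -0.22 to 0.28 for Trbc2. Under CL it gave -0.98 to 0.0175 for Cd3e, -0.38 to 0.38 for Cd3g, -0.26 to 1.31 for Cd8a and -0.39 to 0.52 for Trbc2. For the difference it gave -0.68 to 0.0773 for Cd3g, -1.19 to 0.39 for Cd8a and -0.49 to 0.42 for Trbc2. The members' low counts limit what these libraries can show.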
